A study of Mus musculus with 11 samples.

Results

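The cells described here, mostly amacrine-type interneurons, were 1239 cells of the postnatal day 10 mouse retina, picked out by 6 marker genes (Ebf3, Ppp1r17, Nhlh2, Prdm13, Crabp1 and Lgr5). A cell was taken as a member when more than 300 genes were detected in it, when at least 2 of the 6 markers had a unique molecular identifier (UMI, 1 counted RNA molecule), and when at most 1 of the 5 starburst amacrine genes Chat, Slc18a3, Slc5a7, Slc10a4 and Fezf1 had one. The members came from 20033 cells with more than 300 genes among 20067 deposited cells. Because measured values chose the members, the levels of those 11 genes are given as a description, without a test.

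Single-cell transcriptomes were made with inDrop, a droplet method, from dissociated retinas of C57BL/6J mice after removal of the anterior segment and the pigment epithelium. There were 3 control mice given PBS vehicle, and 3 Phase I ROP mice, in which the beta-cell toxin streptozotocin, injected into the abdomen, raises blood glucose and models the first, vessel-poor phase of retinopathy of prematurity. A further 2 mice of an ω-3 group and 3 of an ω-6 group were streptozotocin-treated littermates whose nursing dams were fed chow enriched in ω-3 or in ω-6 long-chain polyunsaturated fatty acids, so every mouse other than the controls carried the toxin. The labels call the control and Phase I ROP mice littermates of each other, and likewise the ω-3 and ω-6 mice. All mice were taken at P10, each library was 1 mouse, and 2 of the 3 ω-6 libraries name streptozotocin in one label field and leave it out of another.

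Amacrine cells are inhibitory interneurons of the inner retina, and most of them release GABA or glycine. A smaller set carries neither transmitter clearly, and the genes used here are known markers of types within or near that set. Ebf3 and Nhlh2 encode transcription factors of neuronal differentiation, Prdm13 encodes a zinc finger factor of inhibitory amacrine fate, Crabp1 a cytoplasmic retinoic acid binding protein, Lgr5 an R-spondin receptor of the Wnt pathway, and Ppp1r17 an inhibitor of protein phosphatases that is phosphorylated by the cGMP-dependent kinase. On GRCm38 the genes lie at chr7:137193673-137314445 (Ebf3, minus strand), chr6:56017497-56032689 (Ppp1r17, plus), chr3:102010076-102015492 (Nhlh2, plus), chr4:21677480-21685963 (Prdm13, minus), chr9:54764748-54773110 (Crabp1, plus) and chr10:115450311-115587780 (Lgr5, minus).

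Library depth ran from 2565568 to 6517776 UMIs, and the members of 1 mouse summed to between 296416 and 715701 UMIs. The members had a median of 2669 UMIs per cell, against 3869.5 in 2012 other amacrine cells (non-members with at least 2 of the 7 genes Tfap2a, Tfap2b, Tfap2c, Gad1, Gad2, Slc32a1 and Slc6a9) and 1330 in the remaining 16782 cells. The 3 control libraries stood apart. Pearson correlations of log2 member sums across genes were 0.841 to 0.867 among controls, 0.834 to 0.917 among the 8 streptozotocin libraries and 0.719 to 0.800 between these sets, and the first principal component, 35.0% of the variance, placed all 3 controls on one side. No label ties a control library to the same preparation as a treated one, so in every comparison of Phase I ROP with control the treatment and the preparation of the libraries cannot be told apart. Of the members, 160 carried a barcode that also occurs in another library, and 6 shared theirs with a member of another library.

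The marker with the widest reach was Nhlh2, with a UMI in 73.4% of members. Crabp1 followed at 65.5%, Ebf3 at 53.3%, Prdm13 at 48.0%, Lgr5 at 44.7% and Ppp1r17 at 19.4%. In the remaining cells the same genes had a UMI in 1.04%, 0.655%, 0.650%, 0.274%, 1.30% and 0.238% of cells, at a median of 1330 UMIs a cell, and cells left out for having 1 marker are among them. Other amacrine cells were closer, with Nhlh2 in 16.3%, Crabp1 in 14.5%, Lgr5 in 4.57%, Ppp1r17 in 2.58%, Prdm13 in 2.14% and Ebf3 in 0.746%. The 2-marker edge of the rule held 526 members, while 303 had exactly 3 markers, 259 had 4, 132 had 5 and 19 had all 6. Outside the edge stood 1373 cells with exactly 1 marker. The commonest combination was Nhlh2 with Crabp1 alone, in 190 members, followed by all markers but Ppp1r17 in 88. Ppp1r17 was paired with Ebf3 in 67.9% of the cells that had it and with Nhlh2 in 34.6%.

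Most members had an amacrine gene, but they covered more than 1 kind of cell. At least 1 of the 7 amacrine genes had a UMI in 72.9% of members, and Pax6, the eye-field factor that amacrine cells retain, had one in 74.3%. These are genes of amacrine cells in general and do not tell the type. The share with at least 1 of the 7 was 79.3% in members with exactly 2 markers and 68.2% in those with 3 or more. It was 66.5% in the cells left out with 1 marker. Median UMIs of these 3 sets were 3354.5, 2488 and 3236. Defining markers of endothelium (Cldn5, Cdh5), microglia (C1qa) and pigment epithelium (Rpe65) were at 0 in all members. The edge of the rule differed from its core. Levels are given as CPM, the UMIs of a gene when the summed UMIs of the cells are scaled to 1000000. In members with exactly 2 markers Gad1 stood at 557 and Nfix at 163 CPM, and in those with 3 or more Gad1 stood at 101 and Nfix at 943. The cells with only 1 marker, left out by the rule, had Gad1 at 617 and Nfix at 55.8.

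Transmitter genes divided the members, as far as 1 UMI can show it. Gad1 or Gad2, the GABA-synthesising enzymes, were detected without Slc6a9 in 209 members, and Slc6a9, the glycine transporter of glycinergic cells, without either enzyme in 362. Both kinds were detected in 118 and neither in 550, or 44.4%. Among other amacrine cells, which needed 2 amacrine genes to be chosen, neither was detected in 9.59%. The 550 cells with neither were shallower, with a median of 2100.5 UMIs against 5683 in the 209 with Gad1 or Gad2. A transcript missed at low depth and one that was absent cannot be told apart here. Crabp1 stood at 1617 CPM in these 550 cells and at 494 in the 209 with a GABA enzyme, Ppp1r17 at 280 and 22.0, Krt24, a keratin, at 307 and 15.6, and Neurod6, a helix-loop-helix factor, at 68.3 and 3.54. The 209 cells instead held C1ql1, a secreted synapse organiser, at 586 against 14.1 CPM, and the transcription factor gene Maf at 496 against 32.6. The 362 cells with Slc6a9 alone held the highest Nhlh2 of these 3 groups (1122), Nfix at 909, and Lamp5, a membrane protein of neuronal endosomes, at 322 against 15.6 in the cells with a GABA enzyme. Gad1 stood at 64.2 CPM in the members with Ebf3 and at 650 in those without it, and Ebf1 at 651 and 252.

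A set of 29 members (2.34%) had UMIs of 2 or more of the ganglion cell genes Rbpms, Slc17a6, Pou4f1, Pou4f2 and Sncg. These cells were deep, with a median of 22010 UMIs, and there were 3, 2 and 2 of them in the control mice and 0, 4 and 2 in the Phase I ROP mice. They supplied 13.97%, 24.2% and 20.5% of the control members' UMIs and 0%, 19.8% and 6.66% of those of Phase I ROP. The results below that rest on them are given with and without them.

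**Figure D1:**
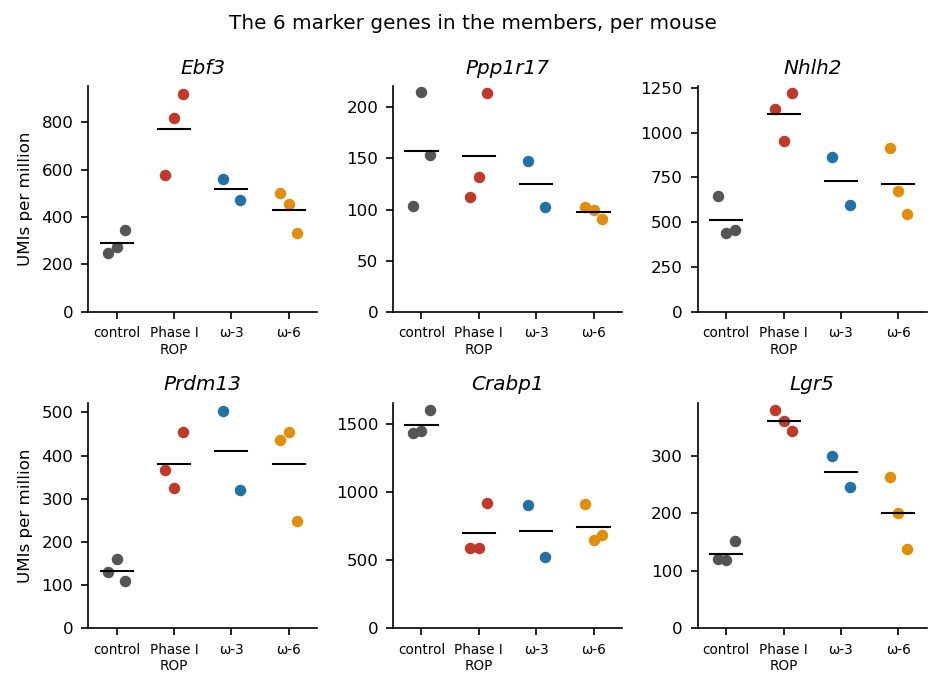
Level of each of the 6 marker genes in the summed members of every mouse, in CPM, by group; points are mice and bars are group means. The control mice lie lowest for Ebf3, Nhlh2, Prdm13 and Lgr5 against the Phase I ROP mice and highest for Crabp1, and the Ppp1r17 points of these 2 groups overlap.

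In the summed members, 185 of 4430 genes at 50 CPM or more were higher than in other amacrine cells in each of the 11 mice. These are descriptions, since the rule picked the cells. After the rule's own genes, the 12 largest ratios included those of 4 transcription factor genes. Nfix, a nuclear factor I gene, had a lowest, median and highest level of 99.7, 572 and 803 CPM over the 11 mice, and 3.79, 21.5 and 82.6 in other amacrine cells. Ebf1, a paralogue of the marker Ebf3, stood at 253, 455 and 630 in the members and 25.3, 44.5 and 75.7 in the others. Nfib had medians of 286 and 31.4, and Tcf4, an E-protein partner of helix-loop-helix factors, 812 and 187. For all 4 the lowest member value lay above the highest value of the other amacrine cells.

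Among the genes that are not transcription factors was Igf1, the insulin-like growth factor ligand whose pathway the study followed in retinopathy. Its median was 87.7 CPM in the members, 6.14 in other amacrine cells, and its mean in the remaining cells was 37.8. Krt24 had medians of 141 and 24.0, and Lrfn5, which encodes a synaptic adhesion molecule, of 125 and 17.3. Ier5, 1810041L15Rik and Gm26880 were also among the 12 largest ratios. The ranges of the members and of other amacrine cells were apart for Igf1, Krt24, Lrfn5, Ier5 and Gm26880 and overlapped for 1810041L15Rik. Nell2 and Thy1 reached that list through the 29 cells with ganglion cell genes: the mean of Nell2 was 82.6 CPM with and 33.9 without them, and that of Thy1 320 and 67.9.

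In the other direction, 148 of 2102 genes at 100 CPM or more in other amacrine cells were lower in the members of every mouse. Rims1, a presynaptic scaffold, had medians of 56.0 in the members and 745 in the others, and Npy, neuropeptide Y, of 46.9 and 461. The AP-2 factor gene Tfap2b, a general amacrine marker, had medians of 340 and 1439.5. Tfap2b, like the GABA enzymes, is among the genes that defined the other amacrine cells. Cartpt, Sept4 and Isl1 completed the list with medians of 23.6, 17.0 and 22.2 CPM in the members.

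**Figure D2:**
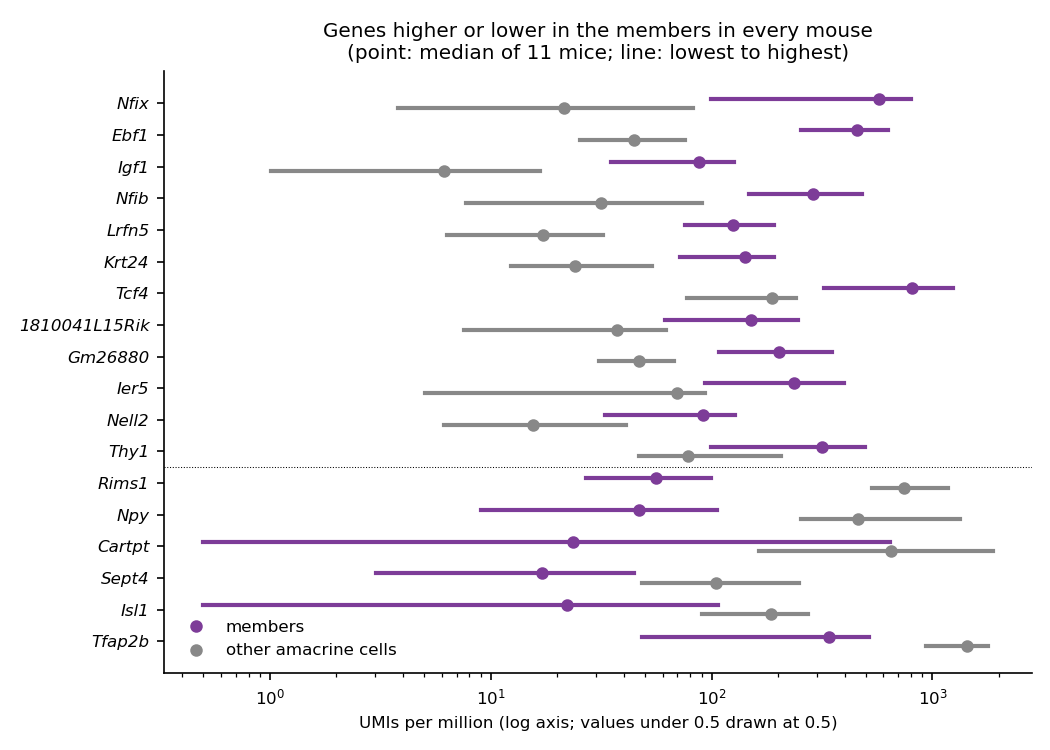
Level of 18 genes outside the rule in members (purple) and in other amacrine cells (grey), in CPM on a log axis; points are medians over 11 mice and lines run from the lowest to the highest mouse. The lines do not overlap for Nfix, Ebf1 and Tcf4 above the dotted line or for Rims1 below it.

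The share of members among kept cells was 10.6%, 8.64% and 7.17% in the control mice and 5.54%, 5.94% and 6.57% in the Phase I ROP mice, so the groups did not overlap (8.80% ± 1.72 against 6.02% ± 0.521, SD, n = 3 each). The two-sided exact permutation p was 0.1, the smallest that 3 against 3 allows. The groups overlapped once the 741 control and 2624 Phase I ROP cells under 1000 UMIs were left out, with shares of 12.6%, 9.77% and 9.08% against 8.41%, 9.11% and 11.9% (exact permutation p = 0.6). With each remaining cell thinned to 1000 UMIs, the shares were 6.01% ± 0.509 and 6.68% ± 1.76 (exact permutation p = 0.8). Of amacrine cells, counting members and the others together, members made up 40.5% ± 6.52 in control and 37.5% ± 4.76 in Phase I ROP (exact permutation p = 0.7). After thinning these shares were 42.1%, 37.0% and 42.0% against 31.4%, 26.9% and 38.0%, a mean difference of -8.32 percentage points (exact permutation p = 0.2). The ω-3 mice had 5.15% and 5.00% members among kept cells and the ω-6 mice 5.31%, 7.19% and 5.36%, which did not overlap. The exact permutation p was 0.2, the smallest for 3 against 2, and thinning brought the means to 4.11% ± 0.634 and 4.59% ± 1.00 (exact permutation p = 0.6).

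The effect of streptozotocin hyperglycaemia was asked of the members by summing their counts per mouse and comparing Phase I ROP with control. Immediate early genes and several neuronal transcription factor genes were higher in Phase I ROP members, and genes of oxidative phosphorylation and the mitochondrial ribosomal RNAs were lower. By edgeR's quasi-likelihood fit, 1771 of 6939 genes passed a Benjamini-Hochberg adjusted p of 0.05. That is 25.5% of the genes tested, 11.5% higher (797) and 14% lower (974), and the counts of each group of genes below are to be read against those shares. The mice of the 2 groups did not overlap for 3094 genes (44.6%), and the median log2 fold change over all genes was 0.02. Leaving out Phase I ROP replicate 3 lowered the count to 984, of which 934 were in common.

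Among the marker genes themselves, Ebf3 stood at 247, 275 and 345 CPM in control members and at 577, 820 and 920 in Phase I ROP members. Prdm13 stood at 131, 160 and 110 against 366, 324 and 454, and Lgr5 at 121, 118 and 151 against 379, 361 and 343. Nhlh2 stood at 644, 441 and 458 against 1131, 951 and 1221. Crabp1 ran the other way, with 1439, 1448 and 1606 against 590, 587 and 920. For these 5 markers the groups did not overlap, and for Ppp1r17 they did (104, 215 and 154 against 112, 132 and 214). The marker genes chose the members, so their levels depend on the rule and are given as a description, without a test. The groups also did not overlap for 44.6% of all 6939 genes tested.

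All 16 tested genes of 28 listed immediate early genes, which neurons and stressed cells transcribe within minutes of a stimulus, were higher in Phase I ROP members, with a median log2 fold change of 2.90 against 0.02 for all genes. The rest of the 28 were not tested. The filter on low counts kept a gene with enough counts in 1 group alone. A gene near 0 in control members, such as Nr4a1, Fosb or Nr4a3, could therefore only come out higher, and the agreement in direction is a description. Nr4a1, an orphan nuclear receptor gene, stood at 2.47, 3.02 and 2.70 CPM in the controls and at 297, 283 and 327 in Phase I ROP. The control values were 1 UMI in each mouse, 3 against 298 in all, a ratio of 112 with a 95% counting interval of 38.1 to 548. Fosb, an AP-1 subunit gene, had 1 UMI in the control members and 98 in those of Phase I ROP, a ratio of 111 (95% counting interval 19.4 to 4422), and Nr4a3 had 3 and 59. Fos, another AP-1 gene, rose from 51.8, 15.1 and 88.9 to 752, 557 and 1142 (log2 fold change 3.69 ± 0.38, SE; edgeR adjusted p = 7.32e-05). Klf6, a zinc finger factor, rose from 9.87, 18.1 and 13.5 to 228, 223 and 227 (log2 fold change 3.77 ± 0.31, edgeR adjusted p = 1.06e-05), and Dusp1, a phosphatase that shuts off MAP kinases, by 2.89 ± 0.45 (edgeR adjusted p = 0.000817). The summed level of the 28 genes was 508 to 647 CPM in control members, 2750 to 4399 in Phase I ROP and 3611 to 4213 over the ω-3 and ω-6 mice, so the controls alone were low. Other amacrine cells of the same mice stood at 390 to 576 and 3321 to 4621 for controls and Phase I ROP.

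Many immediate early genes are known to answer the factor CREB through sites with the core letters TGACG or, read on the other strand, CGTCA. The 250 bases before the start of a gene held one of these on either strand in 9 of the 14 immediate early genes with an entry (64.3%) and in 17.8% of all 32851 promoters of the same RefSeq table (GRCm38.p6), a description of letters and not of binding. The first share counts genes, by any of their entries, and the second counts promoter entries. They were not matched for base composition. The 30-base windows around the copy nearest the start are printed for the 6 genes that are also named here, 5′ to 3′ on the gene's strand, with the core in capitals. The coordinates are those of the whole window. The base number given is that of the first capital letter, counted back from the start, and not of the first letter of the window.
Nr4a1, chr15:101266794-101266823, plus strand, from base 40 before the start: cccctctccatgCGTCAcggagcgcttaag
Fosb, chr7:19310088-19310117, minus strand, from base 60: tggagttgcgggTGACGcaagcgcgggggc
Fos, chr12:85473812-85473841, plus strand, from base 66: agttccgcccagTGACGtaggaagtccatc
Nr4a2, chr2:57124097-57124126, minus strand, from base 111: tgacggggccgcTGACGcgcttggccgcgg
Dusp1, chr17:26508595-26508624, minus strand, from base 140: tagggcgggtgaCGTCAccgcccggtcacg
Nr4a3, chr4:48045146-48045175, plus strand, from base 147: ctgtggcataaaTGACGtgccgagagagcg
The Dusp1 window holds the core on both strands, overlapping, and the Nr4a2 window holds a second copy at its first base.

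**Figure D3:**
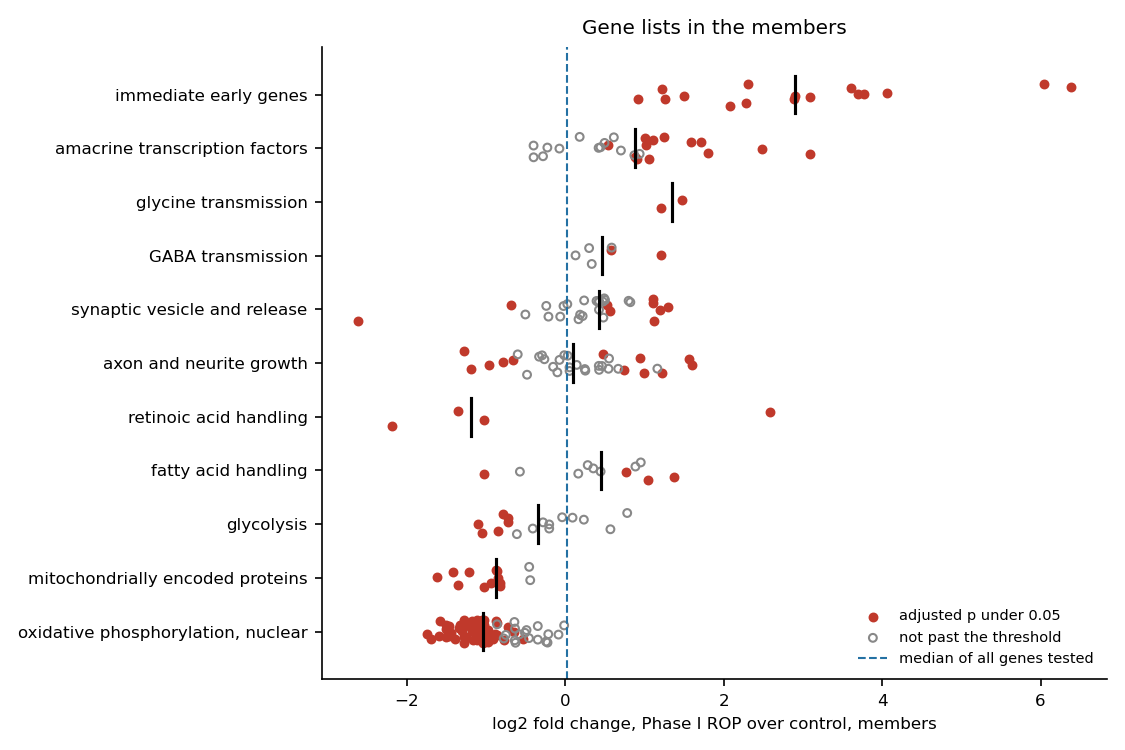
log2 fold change of Phase I ROP over control in the members for every tested gene of 11 lists; filled points passed the adjusted p of 0.05, black bars are list medians and the dashed line is the median of all genes. Every tested immediate early gene lies to the right of 0 and every tested nuclear oxidative phosphorylation gene to the left of it.

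Of 26 tested amacrine transcription factor genes, 13 were higher and none lower (median log2 fold change 0.88), and Nr4a2, Ebf1, Prdm8 and Pax6 among the 13 also stand on other lists. Sox4, a factor of young neurons, rose from 126, 136 and 151 CPM to 956, 816 and 968 (log2 fold change 2.48 ± 0.17, edgeR adjusted p = 2.64e-06), with no overlap and with ω-3 and ω-6 values of 510 to 881. Neurod2, a helix-loop-helix factor of amacrine differentiation, stood at 24.7, 39.3 and 8.09 against 162, 50.6 and 84.4 (1.80 ± 0.51, edgeR adjusted p = 0.0201). Neurod1 rose by 1.71 ± 0.50, a call that was lost in members with under 1% of UMIs in rod genes (1.23, edgeR adjusted p = 0.0903). Nfix rose by 1.58 ± 0.25 (edgeR adjusted p = 0.000801), Tcf4 by 1.25 ± 0.18 and Pax6 by 0.88 ± 0.15. Over all groups, Nfix and Tcf4 stood at 1030 and 1371 CPM in members with Prdm13 UMIs and at 209 and 397 in those without. Prdm13 had a UMI in 26.5%, 33.8% and 26.2% of control members and in 49.6%, 50.6% and 52.0% of Phase I ROP members. A change per cell and a change in the mix of cells cannot be told apart for these genes either. The AP-2 genes did not pass, with log2 fold changes of 0.70 (Tfap2a), 0.87 (Tfap2b) and 0.94 (Tfap2c). Of the Ebf, Nhlh and Prdm families, 5 genes were tested and 3 of those are markers of the rule. The others, both higher, were Prdm8, a transcriptional repressor of amacrine and bipolar development (1.11 ± 0.35), and Ebf1 (0.55 ± 0.18), the latter no longer called with DESeq2 (adjusted p = 0.0980).

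The glycine transporter gene Slc6a9 and the shared carrier gene Slc32a1 were higher in the summed members, and the GABA enzymes did not pass. Slc6a9 stood at 111, 106 and 116 CPM in control members and at 323, 439 and 345 in Phase I ROP, without overlap (log2 fold change 1.47 ± 0.20, edgeR adjusted p = 0.000327). Slc32a1, the vesicular carrier that loads both GABA and glycine, rose from 121, 93.7 and 94.3 to 261, 307 and 290 (1.21 ± 0.20, edgeR adjusted p = 0.00119). In the ω-3 and ω-6 mice Slc6a9 stood at 155 to 258 CPM, between those groups, and Slc32a1 at 222 to 366. Gad1 and Gad2 had log2 fold changes of 0.59 and 0.13. Slc6a9 rose by 1.91 in members without Gad1 or Gad2 UMIs and by 1.34 in members with 3 or more markers. Members with Slc6a9 and neither enzyme made up 20.4%, 17.6% and 18.7% in control mice and 36.3%, 41.0% and 32.2% in Phase I ROP mice. Those with none of the 3 genes made up 56.1%, 57.4% and 60.7% against 38.1%, 33.7% and 49.3%. A change per cell and a change in the mix of cells cannot be told apart in the sums. Prox1, a homeodomain factor gene of AII cells, rose from 66.6, 72.5 and 88.9 to 234, 347 and 461 (1.94 ± 0.26, edgeR adjusted p = 0.000346), and Dab1, the Reelin adaptor used as an AII marker, by 0.99 ± 0.24. Both were named because they were called, so they do not stand for AII genes as a set, whose other changes are not given. Prox1 had a UMI in 39.0% of members, 18.3% of other amacrine cells and 11.8% of the remaining cells.

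Genes of mitochondrial energy supply were lower. Of 75 tested nuclear genes of oxidative phosphorylation, 57 fell, none rose and the median log2 fold change was -1.03. The sum of the 75 was 21621, 21063 and 21957 CPM in control members and 11791, 14520 and 13352 in Phase I ROP members, with ω-3 and ω-6 mice at 11244 to 14142. The complex I subunit genes Ndufb6 (fell by 1.74 ± 0.27), Ndufa12 (fell by 1.69 ± 0.24), Ndufs4 (fell by 1.59 ± 0.25) and Ndufa11 (fell by 1.58 ± 0.23) changed most, with edgeR adjusted p between 0.000479 and 0.000801. Among the 661 members with Ebf3 UMIs, where fewer counts remained, 20 of 73 tested genes of the list fell and the median was -0.86. Of the 13 proteins encoded by mitochondrial DNA, 11 fell (median -0.87). Their sum was 60232, 60265 and 61127 CPM in control members and 54576, 26783 and 30796 in Phase I ROP members. Phase I ROP replicate 1 therefore lay much nearer the controls than its own group. The ω-3 and ω-6 mice, also given streptozotocin, stood at 45788.5 to 54724 CPM, above Phase I ROP replicates 2 and 3. Among 16 tested glycolysis genes 6 fell, Eno1 by 1.10 ± 0.22, Ldhb by 1.04 ± 0.21, Ldha by 0.85 ± 0.19 and Pgk1 by 0.79 ± 0.18, and none rose.

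RNAs outside the messenger pool were among the largest decreases. Rn7sk, the small nuclear RNA that holds the elongation factor P-TEFb inactive, stood at 93.8, 190 and 135 CPM in control members and at 3.30, 3.37 and 0 in Phase I ROP, 151 against 2 UMIs, 66.8 times lower with a 95% counting interval of 18.2 to 556. It was also between 0 and 7.75 in the ω-3 and ω-6 mice. mt-Rnr2, the large mitochondrial ribosomal RNA, fell by 2.62 ± 0.30 (edgeR adjusted p = 0.000119), from 32874, 34272 and 40610 to 9875, 5054 and 5807 CPM, and mt-Rnr1 by 2.31 ± 0.27. Gm37357, a gene model with no assigned function, fell by 3.92 ± 0.36 from 1916, 2128 and 1992 to 303, 87.7 and 87.0. Gm38047, Gm10123 and 4833417C18Rik fell by 2.96, 2.70 and 2.57, and the protein-coding genes Nlrc3 and Slamf1, whose RNAs are messengers, by 2.62 and 2.61. In other amacrine cells Rn7sk fell by 6.06 and Gm37357 by 3.67 on the log2 scale.

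**Figure D4:**
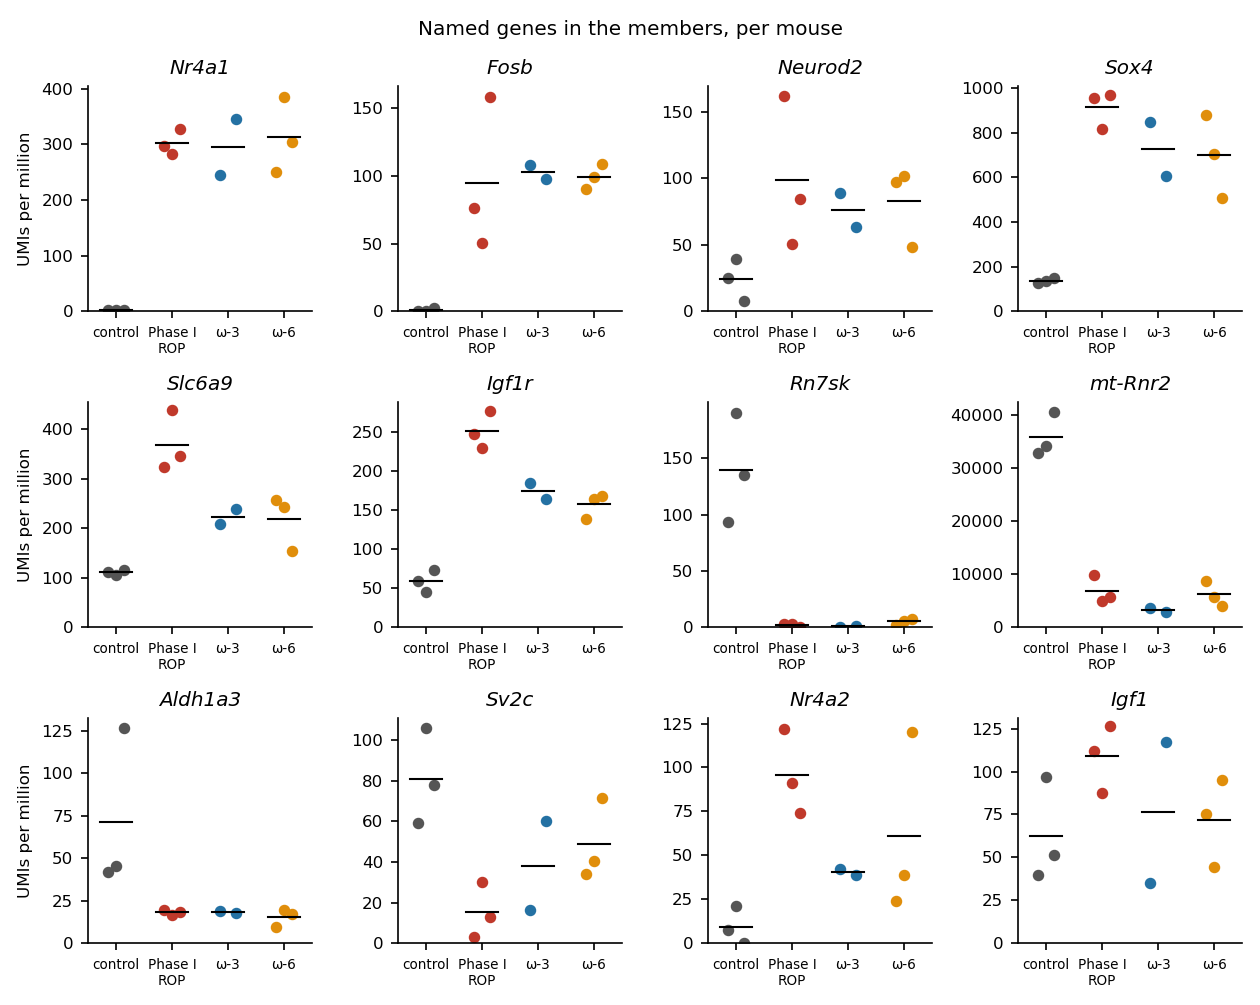
Level of 12 named genes in the summed members of each mouse, in CPM; points are mice and bars are group means. The ω-3 and ω-6 mice lie with the Phase I ROP mice for Nr4a1, Fosb, Sox4, Rn7sk and mt-Rnr2, and the Igf1 points of all 4 groups overlap.

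The insulin receptor substrate gene Irs2, among the 8 largest increases called at 50 CPM or more, stood at 0, 3.02 and 10.8 CPM in control members and at 69.3, 138 and 156 in Phase I ROP members (log2 fold change 4.39 ± 0.61, edgeR adjusted p = 0.000415). Near 0 in control members, Irs2 passed the filter on low counts through Phase I ROP and could only come out higher. Igf1r, the receptor of Igf1, stood at 59.2, 45.3 and 72.8 against 247, 229 and 277 (1.83 ± 0.24, edgeR adjusted p = 0.000346), and ω-3 and ω-6 mice at 139 to 185. Igf1 itself overlapped, at 39.5, 96.7 and 51.2 against 112, 87.7 and 127, and did not pass (0.58 ± 0.34, edgeR adjusted p = 0.22). Vegfa, the vascular growth factor, had a log2 difference of 1.19 ± 0.51 and Adipor1, the adiponectin receptor gene, of 0.58 ± 0.29, neither called (edgeR adjusted p = 0.0999 and 0.157). Of the 7 tested genes on the list of IGF, VEGF and adiponectin genes, which does not hold Irs2, Igf1r was the 1 that rose.

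Of 11 tested fatty acid genes 3 rose and 1 fell. Fasn, fatty acid synthase, rose by 1.38 ± 0.23 from 64.2, 60.4 and 80.9 to 204, 229 and 206 CPM, and Scd2, a desaturase, by 1.04 ± 0.18 (edgeR adjusted p = 0.00124 and 0.00119). Fads1, the delta-5 desaturase that makes long-chain polyunsaturated fatty acids, rose by 0.77 ± 0.25 (edgeR adjusted p = 0.0367), a call lost with DESeq2 (adjusted p = 0.112). Fabp5, a carrier of fatty acids and retinoic acid, fell by 1.03 ± 0.17. Retinoic acid genes, the pathway of the marker Crabp1, gave 4 tested genes of 18 measured, the marker and Fabp5 among them. Aldh1a3, a retinoic acid synthesising enzyme, fell from 42.0, 45.3 and 127 to 19.8, 16.9 and 18.5 (2.19 ± 0.51 on the log2 scale, edgeR adjusted p = 0.00748). Rxrb, a retinoid X receptor gene, rose by 2.59 ± 0.59. It stood at 7.41, 0 and 10.8 CPM in control members, and a gene so low there could only come out higher.

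The pathways of the other markers moved little. The list of Lgr5 and Wnt signalling held 9 tested genes, the marker counted in, and none of the others passed. Of 13 tested genes for cGMP kinases and protein phosphatases, the setting of Ppp1r17, none passed by edgeR (median log2 fold change -0.06, 4 at an unadjusted p under 0.05) or by DESeq2. Synaptic vesicle and release genes gave 7 higher and 2 lower of 29, among them Nrxn2 (1.30 ± 0.19), Sv2a (1.19 ± 0.16) and Nrxn3 (1.12 ± 0.18), adhesion and vesicle proteins. Sv2c, a vesicle protein of few neuron types, stood at 59.2, 106 and 78.2 in controls and at 3.30, 30.4 and 13.2 in Phase I ROP (fell by 2.61 ± 0.51, edgeR adjusted p = 0.00282), and it was too low to be tested without the 29 cells with ganglion cell genes. Receptor genes gave 2 of 21, the glutamate receptor subunits Gria2 (1.26 ± 0.23) and Grik2 (1.25 ± 0.36), and voltage-gated channels 3 of 25, among them the potassium channels Kcna1 (1.74 ± 0.43) and Kcnc1 (1.58 ± 0.30), all higher. Of 34 axon and neurite growth genes 7 were higher, led by the semaphorin receptor Plxna2 (1.60 ± 0.25) and the adhesion molecule Dscaml1 (1.56 ± 0.45), and 5 lower, led by the neuronal tubulin Tubb3 (fell by 1.27 ± 0.24), whose call was lost in members with 3 or more markers (-0.44, edgeR adjusted p = 0.346). Of 11 heat shock genes 1 was higher (Dnajb1, 1.51 ± 0.39) and 4 were lower, among them Hspa8, the constitutive chaperone (fell by 0.97 ± 0.15).

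Genes of ganglion cells turned with the choice of cells. In all members 4 of 8 tested ganglion cell genes fell and 1, Ebf1, rose. Nefl, the light neurofilament subunit, stood at 388, 659 and 838 CPM in control members and at 52.8, 513 and 185 in Phase I ROP members (fell by 1.61 ± 0.47, edgeR adjusted p = 0.0238). Without the 29 cells it stood at 20.1, 11.96 and 13.6 against 52.8, 71.5 and 59.3, and was higher in Phase I ROP (log2 fold change 1.66, edgeR adjusted p = 0.00839). Sncg, Slc17a6 and Nefm fell by 1.91, 1.85 and 1.54 in all members, each not called by DESeq2 (adjusted p = 0.326, 0.320 and 0.213), and none of the 3 was high enough to be tested without the 29 cells, which Sncg and Slc17a6 had helped to choose. Cartpt, the neuropeptide precursor, fell by 3.77 ± 0.88, but its groups overlapped (639, 196 and 10.8 against 13.2, 23.6 and 34.3), and without the 29 cells its mean over all mice was 8.23 CPM.

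**Figure D5:**
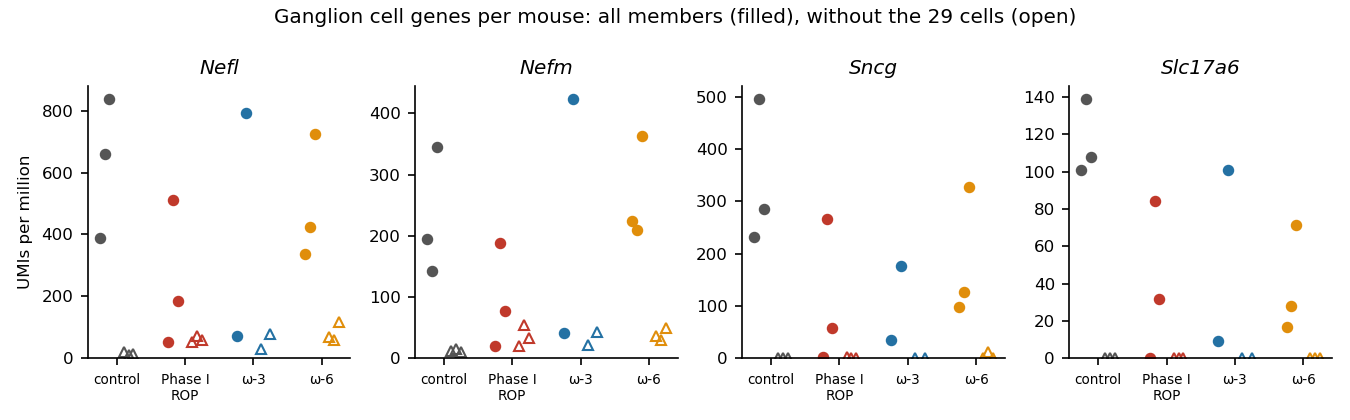
Level of 4 ganglion cell genes per mouse, in CPM, in all members (filled circles) and without the 29 cells that had UMIs of 2 or more ganglion cell genes (open triangles). Nefl of the control mice drops from 388, 659 and 838 to 20.1, 11.96 and 13.6.

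Rod RNA moved with the groups. Prph2, an outer segment gene, stood at 0, 6.04 and 5.39 CPM in control members and at 39.6, 152 and 132 in Phase I ROP (log2 fold change 4.52 ± 0.69, edgeR adjusted p = 0.000781), and Pdc and Nrl rose by 2.58 ± 0.55 and 2.19 ± 0.46, among the 6 rod genes called of 9 tested. A rod gene near 0 in control members, such as Prph2, passed the filter on low counts through Phase I ROP alone. Such a gene could only come out higher, so the count of 6 is a description. The summed 12 rod genes ranged from 323 to 561 CPM in control members, 765 to 1878 in Phase I ROP, 2074 to 2764 in ω-3 and 874 to 2722 in ω-6, and in the remaining cells of these mice from 3239 to 6117 in control and 18417 to 26853 in Phase I ROP. Restricting members to those with under 1% of UMIs in rod genes left 1729 of 6804 genes called, 1665 of them in common with all members. The part of rod RNA in the other results was not tested. Of the other cell classes, cone, astrocyte, vessel, microglia and pigment epithelium genes were too low to test, 1 bipolar gene (Prkca, 1.43 ± 0.32) was tested and rose, no horizontal cell gene of 3 passed, and 1 of 6 Müller glia genes did (Clu, fell by 1.45 ± 0.45).

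Whether these changes were larger in the members than in other amacrine cells was tested with an interaction term and the mouse as a block. No gene of 10160 passed (0%), with 565 at an unadjusted p under 0.05. On their own the other amacrine cells gave 2777 of 9767 genes, 28.4%. Of the genes named, Sv2c had the smallest unadjusted p, having fallen by 2.61 in the members with a log2 difference of -0.38 ± 0.34 in the others (difference of changes -2.36 ± 0.52, edgeR adjusted p = 0.283), and Plxna2 followed with 1.60 and 0.28 (1.29 ± 0.31, edgeR adjusted p = 0.405). Nr4a1 rose by 6.39 and 6.29, Sox4 by 2.48 and 2.21, and Slc6a9 by 1.47 and 0.91. Both sets of cells came from the same libraries and share the control mice.

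The diets were compared within streptozotocin mice to ask what ω-6 against ω-3 feeding does. Xist, the RNA of the inactive X chromosome, was at 905 to 1231 CPM in the members of ω-3 replicate 1 and ω-6 replicates 1 and 3 and at 1.40 to 1.503 in the other diet mice, so both arms mixed the sexes, whose part in the result was not tested. None of 9688 genes passed in the members (0%), with 488 at an unadjusted p under 0.05 in edgeR's quasi-likelihood test and none called and 208 under 0.05 in DESeq2. The 5 smallest unadjusted p-values at 50 CPM or more belonged to Lrrc17, Malat1, AC161763.1, Tac1 and mt-Rnr1. The mice did not overlap for 22.2% of genes, these 5 among them.

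Lrrc17, a secreted leucine-rich repeat protein, stood at 187 and 87.2 CPM in the ω-3 members and at 39.0, 20.96 and 29.1 in the ω-6 members, a log2 difference of -2.16 ± 0.39 (edgeR adjusted p = 0.457). Malat1, an abundant nuclear RNA, stood at 913 and 1099 against 570, 380 and 374, a log2 difference of -1.14 ± 0.22 (edgeR adjusted p = 0.457). In other amacrine cells of the same mice Malat1 was the 1 gene of 12694 called (0.00788%), lower by -1.08 ± 0.15 (edgeR adjusted p = 0.0280). Tac1, the substance P precursor, stood at 49.1 and 15.0 against 87.7, 115 and 141, and mt-Rnr1 at 1037 and 837 against 2445, 1795 and 1271, with log2 differences of 1.99 ± 0.43 and 1.03 ± 0.24 (edgeR adjusted p = 0.788 for both). AC161763.1 stood at 358 and 352 against 166, 138 and 167.

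The lists that differed between Phase I ROP and control had no member called between diets. The 20 tested immediate early genes had a median log2 difference of 0.02, equal to the 0.02 of all genes, and the 75 nuclear oxidative phosphorylation genes one of 0.30, with 11 at an unadjusted p under 0.05. Igf1 stood at 35.1 and 117 CPM in ω-3 members and at 75.5, 44.7 and 94.9 in ω-6 members (log2 difference -0.10 ± 0.44, edgeR adjusted p = 0.992). Igf1r, Vegfa and Adipor1 had log2 differences of -0.08, -0.55 and 0.02, and all 4 overlapped between diets. Set against other amacrine cells, 4 of 12293 genes (0.0325%) had a different diet effect in the members. They were the globin genes Hba-a2, Hbb-bt, Hba-a1 and Hbb-bs, which belong to erythroid cells, and nearly all of their UMIs in the ω-3 members lay in 1 cell of 1 mouse.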

How the data were processed

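The deposited table holds raw UMI counts per gene and cell, which the authors made from inDrop v3 reads with bcbio-nextgen and deposited unnormalised for 11 libraries. Per the labels the build was mm10. Here the cells were filtered as stated, and counts of the members, of other amacrine cells and of the remaining cells were summed per mouse. Sums were compared with edgeR 4.0.16 (filterByExpr, TMM scaling, glmQLFit and glmQLFTest, Benjamini-Hochberg over all genes tested, adjusted p under 0.05), with an interaction term and a block for the mouse where 2 sets of cells were compared. The fits recovered known changes in simulated data, drawn with the same variability for all genes and no mouse effect shared between sets of cells. Real data differ in both respects, so the simulation does not give the error rates of these fits. Levels are CPM of the summed members, SE is that of the log2 fold change, and counting intervals are exact and cover counting error only. Shares were compared with two-sided exact permutation tests over mice. Scrublet marked 0.359% of cells, so it did not work as a caller, and leaving out the 5% highest scores was an alternative. Other alternatives were DESeq2 1.42.0, another scaling, genes kept whatever their counts, a joint fit of the 4 groups, a replicate block, each mouse left out, thinning and other selections of members. Gene coordinates came from GENCODE M21 and promoters from RefSeq. Genes were named by a rule: for each comparison the 8 called genes that rose most and the 8 that fell most at 50 CPM or more with mice not overlapping, or the 5 smallest p where fewer were called, up to 4 called genes per list of 36 lists, the 12 and 6 most extreme ratios to other amacrine cells, the called genes of the difference tests, and Igf1, Igf1r, Vegfa and Adipor1. Other genes given as values were chosen after their values were seen. The members and lists were chosen with earlier results of these data known. Labels name separate mice, so p-values measure the spread between mice. A few genes that this rule names are not reported here.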

Additional observations from a re-analysis of the deposited data

Results flagged for a closer look

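The diet effect on 4 globin genes differed between the members and other amacrine cells of the same mice by the interaction test. The log2 differences of the 2 effects were -9.23 for Hba-a2, -9.88 for Hbb-bt, -9.41 for Hba-a1 and -4.80 for Hbb-bs (edgeR quasi-likelihood adjusted p = 1.77e-05, 1.77e-05, 0.0017 and 0.00751). In ω-3 replicate 2, 1 member with 13046 UMIs in all held 680 of the 682 Hbb-bs UMIs of that mouse's members, and all 436 Hbb-bt, 214 Hba-a1 and 302 Hba-a2 UMIs. Without that mouse no gene was called, nor without ω-6 replicate 2, and without the ω-3 mouse the values were 1.51 for Hbb-bs and 0.45 for Hba-a1. The same cell held all 11 UMIs of Alas2, the erythroid haem synthesis enzyme. No group had 4 or more mice, so no sample was tested for standing apart within its group.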

How the results depend on the processing

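All values here are log2 or percentage-point differences or counts of called genes by edgeR unless another tool is named, and the cause of each shift was not tested. The 1771 genes called between Phase I ROP and control became 884 in members with 3 or more markers, 1047 without cells with Gad1 or Gad2, 556 with Ebf3 UMIs only, and 984 to 1725 with 1 mouse left out; fewer genes could be tested in the first 3 (3065, 4385 and 3966). DESeq2 called 1194. The selections by ganglion cell genes, Gad1 and Gad2, Ebf3 and rod share were chosen after seeing the data. For diet in the members, 24 genes were called with no filter on low counts and 0 to 5 with 1 mouse left out. The difference of the Phase I ROP changes from other amacrine cells gave 25 genes with no filter, 6 without cells with ganglion cell genes, 2 with Ebf3 UMIs only and 0 to 2 with 1 mouse left out. That of the diet effects gave 12 with no filter, 0 without Gad1 and Gad2 cells, 0 with Ebf3 UMIs only and 0 to 5 with 1 mouse left out.

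With the replicate number as a block, 1681 genes were called for Phase I ROP and 19 for diet. Deviations from the group mean correlated at r = 0.0635, 0.0373 and 0.0814 between same-numbered mice for Phase I ROP, and at 0.198 and 0.145 for diet. Differently numbered mice gave -0.0872 to 0.0261 and -0.198 to 0.0788, so the same-numbered pairs were the highest in each comparison. With 2 ω-3 mice, their deviations mirror each other. Nothing in the labels says that a number marks a shared litter, so the numbers were not taken as pairs. The numbers coincide with sex-linked RNA in the diet mice: Xist stood at 1231 and 1222 CPM in ω-3 and ω-6 replicates 1, at 1.503 and 1.40 in replicates 2 and at 905 in ω-6 replicate 3, so the block and sex cannot be told apart there.

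The share of members among kept cells turned to 0.668 for Phase I ROP after thinning. Among amacrine cells it turned to 1.38 with 3 or more markers and 1.99 without Crabp1 in the rule, and for diet to -2.85 after thinning, -0.958 without Crabp1, and ran from -2.13 to 3.22 with 1 mouse left out. Nefl turned to 1.66 without cells with ganglion cell genes. Of the diet differences, none of them called, Adipor1 turned to -0.079 with 3 or more markers, -0.033 with no starburst gene, -0.058 with an amacrine gene and -0.11 without cells with ganglion cell genes, and ran from -0.21 to 0.11 with 1 mouse left out. Igf1 turned to 0.43 and 0.46 under the first and last of these and ran from -0.68 to 1.07, Igf1r turned to 0.079 with an amacrine gene and ran from -0.17 to 0.00053, and Hbb-bs in the members ran from -5.12 to 3.47. The difference between cell sets for Hbb-bs turned to 2.47 without Gad1 and Gad2 cells and 3.39 with Ebf3 UMIs only and ran from -5.33 to 1.51, and that for Hba-a1 ran from -10.5 to 0.45. With 1 mouse left out, 46 of the values for named genes in Phase I ROP lost their call and none changed sign. Among them, Clu, Dscaml1, Fads1, Grik2, Nefl, Nefm, Neurod1, Neurod2, Prdm8, Slc17a6, Sncg and Unc5d lost it for more than 1 choice of mouse, and Kcna1, Meg3 and Rxrb without Phase I ROP replicate 2 and mt-Atp8 without replicate 3. Where a diet arm was left with 1 mouse, that mouse was assumed to vary like the others. Depth limits the rest: the members of a mouse summed to 296416 to 715701 UMIs, and genes near 1 UMI per mouse carry the wide intervals given.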
